A study of Mus musculus with 6 samples.

Results

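Transcript levels of 8 genes that neighbour each other on chromosome 13 were described in acute myeloid leukaemia (AML) blasts with and without TET2. The genes were the antisense RNA gene 9330111N05Rik, the pseudogene Gm18517 and the coding genes Arrdc3, Adgrv1, Lysmd3, Polr3g, Mblac2 and Cetn3, 8 of the 53458 genes in the annotation used. 9330111N05Rik and Gm18517 were chosen because they were low in TET2-deficient blasts in these same libraries, so their values are a description without a test. The 6 coding genes were chosen by position, to ask whether the loss extends to coding neighbours. All mice carried Cebpa-/p30, which leaves the short p30 isoform of the myeloid transcription factor CEBPA as the only one made. The groups were 3 mice of the genotype Cebpa-/p30 Tet2+/+ (mice 19, 23 and 24) and 3 of the genotype Cebpa-/p30 Tet2-/- (mice 5, 7 and 8), of strain C57BL/6 by the labels, with 1 library per mouse. The leukaemias arose in irradiated adult female recipients of the congenic strain C57BL/6J.SJL, given bone marrow from individual C57BL/6J donors. The study states that each donor served several recipients, and the labels do not say whether mice of a genotype shared a donor. Floxed alleles of the transplanted cells were recombined in the recipients by poly(I:C), which induces Mx1-Cre through an interferon-responsive promoter. Blasts were sorted from marrow of moribund recipients as CD45.2+ cells without CD3, B220 and Ter119.

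TET2 oxidises methylated cytosine at CG dinucleotides, a step towards removal of the methyl group, and its gene is often mutated in AML. An antisense RNA is transcribed from the strand opposite a coding gene and may or may not affect that gene. A processed pseudogene is a copy of a spliced messenger RNA that was inserted elsewhere in the genome. Of the coding genes, Arrdc3 encodes an α-arrestin that brings NEDD4-family ubiquitin ligases to membrane receptors, and Adgrv1 encodes a very large adhesion G protein-coupled receptor known from hair cells and photoreceptors and mutated in Usher syndrome. Polr3g encodes a subunit of RNA polymerase III, Cetn3 a calcium-binding centrin of the centrosome, Mblac2 an enzyme of the metallo-β-lactamase fold, and Lysmd3 a membrane protein with a LysM domain.

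The library totals were 16798815, 16900584 and 13036643 estimated reads in mice 19, 23 and 24, against 32855343, 17953277 and 18478656 in mice 5, 7 and 8. Levels are given as CPM, the reads of a gene scaled to the same total in every library with TMM factors. Tet2 itself was at 83.8 ± 13 CPM (SD, n = 3) in Tet2+/+ and 95.8 ± 16 CPM (SD, n = 3) in Tet2-/- blasts, so the sum over the gene does not check the genotype. Genes of myeloid blasts (Mpo, Elane, Prtn3, Ctsg, Itgam, Kit, Cd34 and Ptprc) summed to between 7226 and 9561 CPM in Tet2-/- and between 7781 and 9349 CPM in Tet2+/+ mice, and the genotypes overlapped. All 8 locus genes passed the filter on low counts, with 22170 genes tested in all.

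The 8 genes lie within 913772 bases of chromosome 13 (GRCm38, GENCODE M21). Arrdc3 (ENSMUSG00000074794, chr13:80883384-80896042, + strand) comes first. 9330111N05Rik (ENSMUSG00000097098, chr13:80962888-81128864, + strand) starts 66846 bases beyond its end. Gm18517 (ENSMUSG00000114836, chr13:81085391-81087564, - strand) lies within the span of 9330111N05Rik. Adgrv1 (ENSMUSG00000069170, chr13:81095068-81633154, - strand) ends inside that span too, so that the spans of the 2 genes overlap by 33797 bases. The last exons of Adgrv1, between positions 81095068 and 81107091, fall in an intron of 9330111N05Rik, at least 15211 bases from its nearest exon. No exon of 1 gene overlaps an exon of the other. Lysmd3 (ENSMUSG00000035840, chr13:81657663-81672871, + strand), Polr3g (ENSMUSG00000035834, chr13:81673843-81711013, - strand), Mblac2 (ENSMUSG00000051098, chr13:81711341-81753275, + strand) and Cetn3 (ENSMUSG00000021537, chr13:81783077-81797155, + strand) follow. Polr3g and Mblac2 run in opposite directions from starts 328 bases apart. The library kit did not keep the strand, so reads cannot be assigned to a strand where exons of opposite genes overlap. Such overlaps of exons involved 9330111N05Rik with Gm4211 (253 bases) and Cetn3 with Gm17259 (270 bases).

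**Figure D1:**
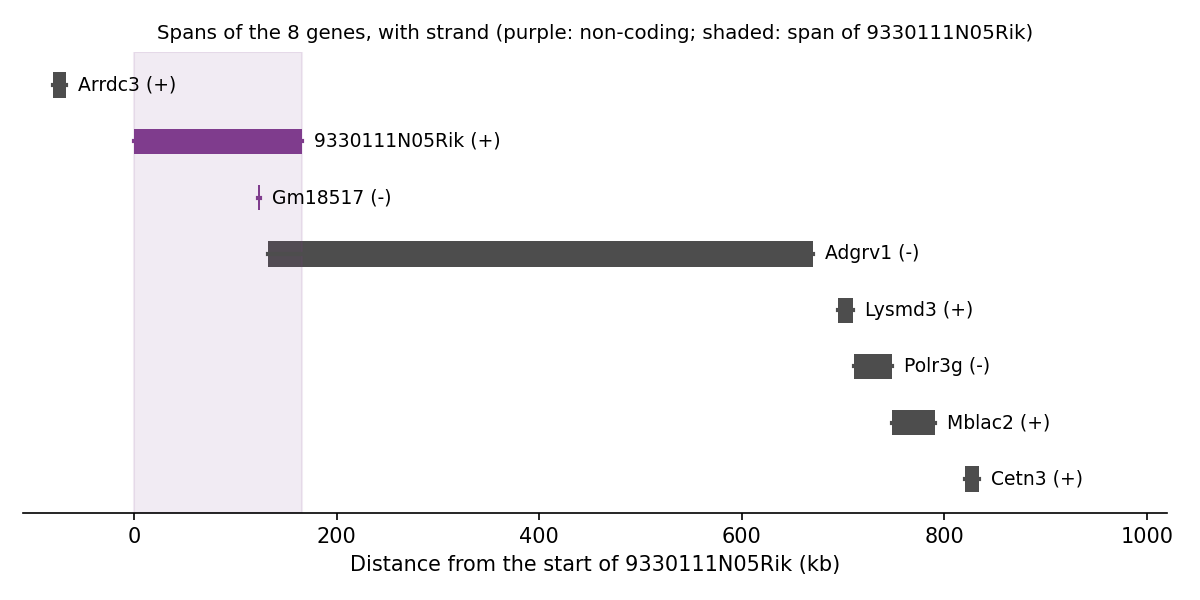
Position of the 8 genes along chromosome 13, as distance in kb from the start of 9330111N05Rik, with 1 bar per gene and its strand in parentheses. Gm18517 and the 3′ end of Adgrv1 lie within the shaded span of 9330111N05Rik, and the other coding genes lie outside it.

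Promoter windows of 300 bases (250 before and 50 after a transcript start) were matched for 7 of the 8 genes, 9 windows in all, in RefSeq for GRCm38.p6. The windows of 9330111N05Rik, of the coding gene before it and of the coding gene that overlaps it are shown because TET2 acts on CG dinucleotides, which stand in capitals. Each reads 5′ to 3′ on the gene's own strand, at chr13:80963824-80964123 (+ strand) for 9330111N05Rik, chr13:80883172-80883471 (+ strand) for Arrdc3 and chr13:81633095-81633394 (- strand) for Adgrv1.
9330111N05Rik: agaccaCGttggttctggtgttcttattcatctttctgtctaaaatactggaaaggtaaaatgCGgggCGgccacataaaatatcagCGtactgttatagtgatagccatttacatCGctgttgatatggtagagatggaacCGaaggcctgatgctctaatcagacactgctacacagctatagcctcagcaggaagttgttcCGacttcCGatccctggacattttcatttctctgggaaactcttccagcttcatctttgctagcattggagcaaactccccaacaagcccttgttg
Arrdc3: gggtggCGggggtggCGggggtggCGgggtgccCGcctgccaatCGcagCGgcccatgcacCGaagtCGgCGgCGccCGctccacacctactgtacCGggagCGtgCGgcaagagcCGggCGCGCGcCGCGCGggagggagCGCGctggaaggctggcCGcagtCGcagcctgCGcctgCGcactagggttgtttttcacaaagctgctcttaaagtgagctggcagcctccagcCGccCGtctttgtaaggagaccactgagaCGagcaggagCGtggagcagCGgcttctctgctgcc
Adgrv1: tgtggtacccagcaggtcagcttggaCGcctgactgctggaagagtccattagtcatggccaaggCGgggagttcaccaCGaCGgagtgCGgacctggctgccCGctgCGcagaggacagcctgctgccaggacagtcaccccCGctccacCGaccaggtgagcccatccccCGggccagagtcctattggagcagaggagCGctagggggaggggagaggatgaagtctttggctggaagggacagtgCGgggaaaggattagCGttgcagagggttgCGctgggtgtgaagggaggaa

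The 9330111N05Rik window held 8 CG dinucleotides, near the median of 7 over all 32851 promoter windows of the same length, and 48.7% of windows held at least as many. Its transcript start at 80964074 is that of the annotated transcript ENSMUST00000180409, which held a mean share of 15.1% of the gene's reads. ENSMUST00000181508 (48.0%) and ENSMUST00000223730 (28.5%) start elsewhere, at 80981144 and 81051181. No window was matched to those starts, so the counts for this gene cover only 1 of its starts. The Arrdc3 window shown, 1 of 3 for this gene, held 32 CG, a number reached by 9.52% of windows. The other 2, at chr13:80883134-80883433 and chr13:80885845-80886144, held 35 each, reached by 6.95%. The Adgrv1 window held 14, reached by 36.3%. The windows of Lysmd3, Polr3g, Mblac2 and Cetn3 held 44, 26, 23 and 22 CG, and those of Polr3g and Mblac2 share 97 bases. Neither TTGCNNAA, which holds a C/EBP core, nor AGATAA, which holds a GATA core, was found on either strand in any of the 9 windows. These 2 sequences occur in 10.8% and 11.2% of all windows. Only these exact sequences were searched, so other forms of either site were not counted. The bases GATA themselves occur in the 9330111N05Rik window shown. Methylation was not measured in these libraries, and the study's bisulfite sequencing of blasts of both genotypes was not used here. The starts used by the 3′ transcripts of Adgrv1 described further on are not in the window shown.

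9330111N05Rik was present in every Tet2+/+ mouse and nearly absent from every Tet2-/- mouse. It had 524, 293 and 708 estimated reads in mice 19, 23 and 24, against 11.4, 3.0 and 6.3 in mice 5, 7 and 8. In CPM these were 31.3, 15.7 and 49.8 against 0.348, 0.193 and 0.325. The lowest Tet2+/+ mouse, mouse 23, was far above the highest Tet2-/- mouse, mouse 5, which has the deepest library. The fitted log2 fold change of Tet2-/- over Tet2+/+ was -6.73 (SE 0.56), a level 106 times lower, and it was between -7.09 and -5.02 over 16 other settings of the processing.

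All 4 of its transcripts that held reads were low together. ENSMUST00000181043, of 3 exons, had 80.3, 50.1 and 130.8 reads in mice 19, 23 and 24 and 0 in each Tet2-/- mouse. ENSMUST00000181508, which held the largest mean share of the gene's reads (48.0%), had 228.7, 89.9 and 332.2 reads against 5.4, 2.0 and 3.3. The 2 transcripts whose exons overlap no other gene gave the same picture, with 93.4, 71.6 and 93.0 against 2.1, 0 and 1.1 reads for ENSMUST00000180409, and 121.6, 81.4 and 152.0 against 3.9, 1.0 and 1.9 for ENSMUST00000223730. The fifth annotated transcript had 0 reads in every mouse.

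Gm18517 was low in the same 3 mice. It had 82.3, 62.4 and 104.7 CPM in mice 19, 23 and 24, against 3.98, 3.54 and 3.80 CPM in mice 5, 7 and 8, and the genotypes did not overlap. The log2 fold change was -4.46 (SE 0.25), a level 22 times lower, and it was between -4.96 and -4.21 over the 16 other settings. Its 2 transcripts differed in what was left. The short one, ENSMUST00000224010 (808 bases), had 292.8, 226.4 and 317.9 reads in Tet2+/+ mice and 2.1, 0 and 0 in mice 5, 7 and 8. The long one, ENSMUST00000223708 (1924 bases), had 1083.3, 939.9 and 1169.4 reads against 124.0, 55.3 and 70.2, so that it held between 98.3% and 100% of the gene's remaining reads. This long transcript shares sequence with other genes. At least 85% identity over at least 100 bases was found with transcripts of 137 other genes, and at least 95% identity with 12, whereas the short transcript had such matches with 4 genes at 85% and with 0 at 95%. Reads of shared sequence are divided between genes by estimation, so the level left in the long transcript is uncertain.

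Gm18517 alone made up between 31.3% and 37.7% of all reads of the 8 genes in Tet2+/+ mice and between 2.32% and 3.13% in Tet2-/- mice. The 6 coding genes together summed to 115, 122 and 123 CPM in mice 19, 23 and 24, against 123, 149 and 129 CPM in mice 5, 7 and 8. The sum over the 6 was thus not lower in the Tet2-/- mice, though the genotypes overlapped only at their edge, at mice 24 and 5.

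Summed levels of 2 lists for other cell types were low in the same mice. Genes of plasma cells (Jchain, Mzb1, Sdc1, Tnfrsf17 and Prdm1) summed to between 136 and 195 CPM in Tet2+/+ and between 30.3 and 57.2 CPM in Tet2-/- mice. All 5 genes were lower in the fit and 2 of them at an unadjusted p under 0.05 in edgeR, beside 5.12% of all genes tested. Genes of basophils and mast cells (Mcpt8, Cpa3, Prss34, Ms4a2, Fcer1a and Gata2) summed to between 304 and 396 CPM in Tet2+/+ and between 30.9 and 110 CPM in Tet2-/- mice. Of these 6 genes 4 were tested, with 3 lower and 2 lower at an unadjusted p under 0.05, beside 5.12% of all genes tested. Neither sum overlapped between genotypes, and no listed gene was at 0 in all mice. Their part in the low 9330111N05Rik and Gm18517 was not tested. In bulk RNA, fewer cells of a type and less RNA per cell cannot be told apart. Genes of monocytes and macrophages (Csf1r, Ly6c2, Cx3cr1, Adgre1 and F13a1) gave sums that overlapped. These were between 1541 and 2668 CPM in Tet2+/+ and between 2397 and 4637 CPM in Tet2-/- mice. All 5 genes were higher in the fit and 1 at an unadjusted p under 0.05 in edgeR, beside 3.0% of all genes tested. The sums for B, T and NK, erythroid and megakaryocytic genes, and for those of eosinophils and plasmacytoid dendritic cells, overlapped between genotypes too.

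**Figure D2:**
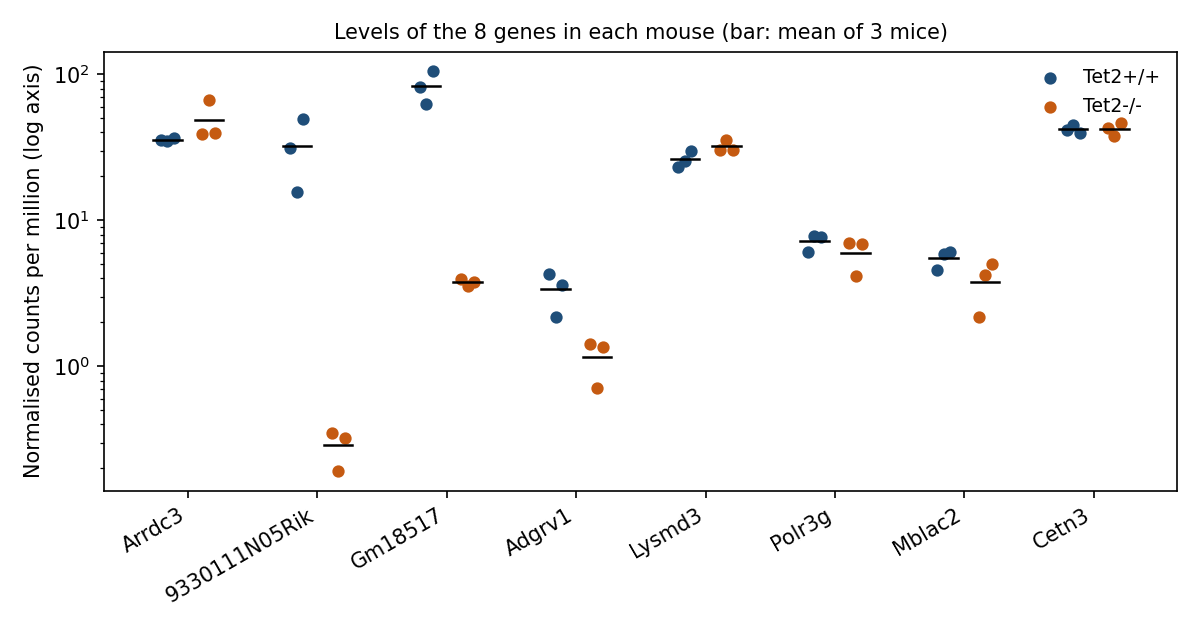
Normalised CPM on a log axis for the 8 genes in order of position, with 1 point per mouse, blue for Tet2+/+ and orange for Tet2-/-, and a bar at the mean of 3 mice. The genotypes are widely apart for 9330111N05Rik and Gm18517, less so for Adgrv1, and close or overlapping for the other 5.

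Among the 6 coding genes, none passed the threshold of an adjusted p under 0.05 in either direction, by the quasi-likelihood test of edgeR with p adjusted over all 22170 genes by the Benjamini-Hochberg method, and DESeq2 called none either. Over all genes, edgeR called 10 lower (0.0451%) and 0 higher (0%), and DESeq2 called 325 of 21924 lower (1.48%) and 59 higher (0.269%). At an unadjusted p under 0.05, 1 coding gene, Adgrv1, was lower and 0 were higher in edgeR, against a background of 1135 genes lower (5.12%) and 664 higher (3.0%), and DESeq2 gave the same count of 1 and 0. In CPM the genotypes did not overlap in 1 coding gene that was lower (Adgrv1) and in 2 that were higher (Arrdc3 and Lysmd3). Over all tested genes, 7.94% did not overlap and were lower, and 6.41% did not overlap and were higher. In TPM, which takes account of transcript length, 2 coding genes were lower without overlap (Adgrv1 and Mblac2) and 0 were higher, beside 9.46% lower and 3.84% higher over all tested genes, and Arrdc3 and Lysmd3 overlapped. The median log2 fold change of the 6 was -0.12, against 0.0016 over all genes tested, with 3 below and 3 above 0. Exact permutation of 3 against 3 mice cannot give a p under 0.10 for any gene, and p-values here measure the spread between mice of 1 library each.

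Adgrv1, the gene that overlaps the span of 9330111N05Rik, had the lowest fold change of the coding genes. It had 72.1, 40.9 and 51.1 reads in mice 19, 23 and 24, against 44.8, 11.4 and 25.4 in mice 5, 7 and 8, which is 4.31, 2.19 and 3.59 CPM against 1.42, 0.707 and 1.36 CPM. The means were 3.36 ± 1.07 CPM (SD, n = 3) and 1.16 ± 0.40 CPM (SD, n = 3), and every Tet2-/- mouse was below every Tet2+/+ mouse. The log2 fold change was -1.52 (SE 0.46, 95% interval -2.60 to -0.43, edgeR adjusted p = 0.507, and p = 0.10 by a two-sided exact permutation test). DESeq2 gave an adjusted p of 0.0896, and 0.0673 on length-scaled counts. Over 16 other settings the log2 fold change was between -1.77 and -0.78 and the adjusted p of the tool used between 0.0673 and 1.0.

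The reads of Adgrv1 came from 3 of its 14 transcripts in the files, and these 3 did not behave alike. The full-length transcript ENSMUST00000095585 had 0 reads in every mouse, where a count of 0 allows up to 3. Of the 4 transcripts that reach the 3′ end of the gene, 2 had reads. ENSMUST00000128120 had 52, 13 and 0 reads in mice 19, 23 and 24, and ENSMUST00000224088 had 0, 0 and 40, so that in each Tet2+/+ mouse all of these reads were given to 1 of the 2 transcripts. The 2 share 1376 exon bases, of 1591 in ENSMUST00000128120 and 1492 in ENSMUST00000224088, and whether their reads were separated correctly was not tested. Summed, a grouping chosen after the values were seen and given without a test, they had 52, 13 and 40 reads in Tet2+/+ mice and 1, 0 and 0 in mice 5, 7 and 8. In CPM this was 3.11, 0.696 and 2.82 in Tet2+/+ mice, and the Tet2-/- mean was at least 14.7-fold lower, computed against 3 counts in each Tet2-/- library. The transcript ENSMUST00000146141, a retained intron of 2 exons within the gene at chr13:81541520-81544637, was left. It had 20.1, 27.9 and 11.1 reads in mice 19, 23 and 24, against 43.8, 11.4 and 25.4 in mice 5, 7 and 8, at 1.17 ± 0.37 against 1.15 ± 0.39 CPM (SD, n = 3 each). Its log2 fold change was -0.02 (SE 0.54). It made up between 21.7% and 68.2% of the gene's reads in Tet2+/+ and between 97.8% and 100% in Tet2-/- mice. ENSMUST00000146141 matches transcripts of at least 1551 other genes at 85% identity over 100 bases or more, so its level is uncertain, whereas ENSMUST00000128120 and ENSMUST00000224088 had 0 such matches. The deposited values do not say where along a transcript its reads fall.

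**Figure D3:**
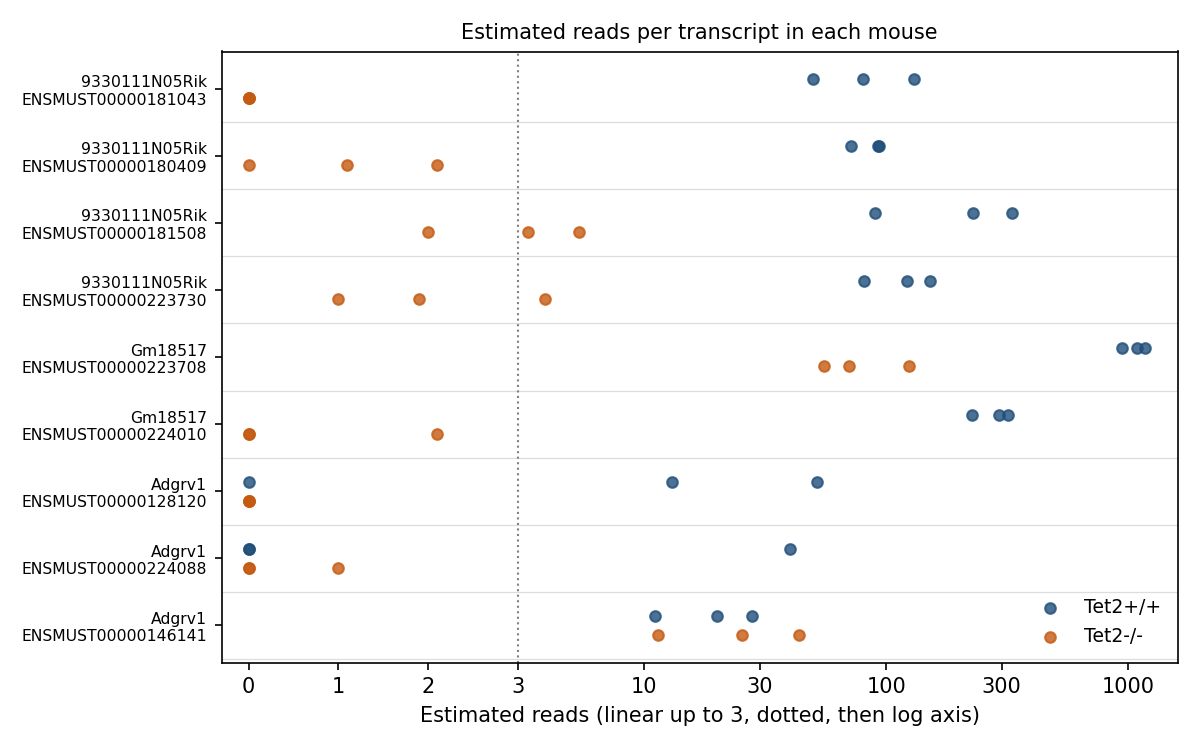
Estimated reads per transcript of 9330111N05Rik, Gm18517 and Adgrv1 in each mouse, with 1 point per mouse, on an axis that is linear up to 3 reads and logarithmic beyond. The 2 Adgrv1 transcripts that reach the 3′ end are at 0 or 1 read in Tet2-/- mice, whereas ENSMUST00000146141 overlaps between genotypes.

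Arrdc3, which lies on the other side of 9330111N05Rik, was not lower. It had 35.4, 35.1 and 36.7 CPM in mice 19, 23 and 24, against 38.9, 66.6 and 39.7 CPM in mice 5, 7 and 8. Every Tet2-/- mouse was above every Tet2+/+ mouse in CPM, by little in mice 5 and 8 and by more in mouse 7, whereas in TPM the genotypes overlapped. The log2 fold change was 0.44 (SE 0.24, 95% interval -0.13 to 1.0, edgeR adjusted p = 0.688), and without mouse 7 it was 0.14. The interval leaves room for a level from 0.913 to 2.01 times that of Tet2+/+ blasts. The coding transcript ENSMUST00000099356 held between 26.3% and 60.0% of the gene's reads and ENSMUST00000159690, annotated as subject to nonsense-mediated decay, between 28.8% and 60.5%, and the shares of both overlapped between genotypes.

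Lysmd3 had 23.3, 25.6 and 29.8 CPM in mice 19, 23 and 24, against 30.6, 35.7 and 30.2 CPM in mice 5, 7 and 8. The highest Tet2+/+ mouse was just under the lowest Tet2-/- mouse in CPM, and in TPM the genotypes overlapped. The log2 fold change was 0.29 (SE 0.18, 95% interval -0.13 to 0.72, edgeR adjusted p = 0.722). One transcript of 3 exons, ENSMUST00000224300, held between 83.2% and 95.2% of its reads.

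Polr3g and Mblac2, whose starts adjoin, both overlapped between genotypes in CPM. Polr3g had 6.10, 7.76 and 7.67 CPM against 6.96, 4.18 and 6.89 CPM, with a log2 fold change of -0.25 (SE 0.31, 95% interval -0.99 to 0.48, edgeR adjusted p = 0.871). Mblac2 had 4.54, 5.89 and 6.05 CPM against 2.18, 4.24 and 4.99 CPM, with a log2 fold change of -0.53 (SE 0.39, 95% interval -1.46 to 0.39, edgeR adjusted p = 0.774). Mouse 7 was the lowest in Polr3g and mouse 5 the lowest in Mblac2. Leaving out 1 mouse gave log2 fold changes between -0.39 (without mouse 5) and -0.05 (without mouse 7) for Polr3g, and between -0.78 (without mouse 8) and -0.26 (without mouse 5) for Mblac2. Per length the Mblac2 levels did not overlap, at 0.923 to 1.52 TPM in Tet2+/+ and 0.368 to 0.885 TPM in Tet2-/- mice, and on length-scaled counts its log2 fold change was -0.85 (adjusted p = 0.695 by edgeR and 0.545 by DESeq2). The reads of Polr3g moved between the coding transcript ENSMUST00000048993 and the retained intron ENSMUST00000162535 from mouse to mouse within a genotype. ENSMUST00000048993 held 9.59%, 93.5% and 95% of the reads in mice 19, 23 and 24, against 66.3%, 72.7% and 37.4% in mice 5, 7 and 8.

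Cetn3, the farthest of the coding genes from 9330111N05Rik, differed least. It had 41.7, 45.0 and 39.5 CPM in mice 19, 23 and 24, against 43.2, 37.9 and 46.2 CPM in mice 5, 7 and 8, with a log2 fold change of 0.01 (SE 0.16, 95% interval -0.36 to 0.38, edgeR adjusted p = 0.994). The interval leaves room for a level from 0.778 to 1.30 times that of Tet2+/+ blasts. On the transcripts that overlap no other gene the log2 fold change was -0.46, also without a call.

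Within the coding genes, 14 transcripts held a mean share of at least 5% of their gene's reads. None passed an adjusted p under 0.05, and neither did any of the 66893 transcripts tested with edgeR, the smallest adjusted p being 0.158. At an unadjusted p under 0.05, 1 of the 14 was lower and 0 were higher, beside 2.85% and 2.43% of all transcripts tested. That 1 was Adgrv1 ENSMUST00000128120, with 52, 13 and 0 reads against 0 in each Tet2-/- mouse, which reached the mean share of 5% only through Tet2+/+ mice, so nothing is read from this count. In 3 of the 14, Adgrv1 ENSMUST00000146141, Mblac2 ENSMUST00000057598 and Cetn3 ENSMUST00000223793, the share of the gene's reads was higher in every Tet2-/- mouse than in every Tet2+/+ mouse (p = 0.10 each by a two-sided exact permutation test, and 0.467 after Benjamini-Hochberg adjustment over the 14), and in 0 of them it was lower. Of 33392 transcripts with such a mean share in all tested coding genes that had reads in every mouse, the share did not overlap and was higher in 5.41% and lower in 5.83%.

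Levels of different genes were compared per length, in TPM, the abundance scaled by transcript length. In Tet2+/+ blasts the order was Cetn3 at 68.8 ± 4.96, 9330111N05Rik at 55.6 ± 25.6, Gm18517 at 41.3 ± 11.4, Lysmd3 at 9.14 ± 3.91, Arrdc3 at 7.38 ± 1.21, Polr3g at 3.19 ± 0.58, Adgrv1 at 1.44 ± 0.47 and Mblac2 at 1.28 ± 0.32 TPM (SD, n = 3 each). The SDs of neighbours in this order overlapped except between Gm18517 and Lysmd3, between Arrdc3 and Polr3g and between Polr3g and Adgrv1. The place of 9330111N05Rik rested on its short transcript ENSMUST00000223730 (337 bases). That transcript gave 46.3 of the 55.6 TPM in Tet2+/+ blasts with a mean of 24.1% of the gene's reads there. In CPM the gene was at 32.3 in Tet2+/+ blasts, below Gm18517 at 83.1. In Tet2-/- blasts Cetn3 stayed first at 68.5 ± 5.69 TPM, 9330111N05Rik went from rank 2 to rank 7 at 0.63 ± 0.20 TPM, and Gm18517 from rank 3 to rank 5 at 1.23 ± 0.10 TPM (SD, n = 3 each). There the SD of 9330111N05Rik overlapped those of Mblac2 at rank 6 (0.66 ± 0.26 TPM) and Adgrv1 at rank 8 (0.41 ± 0.14 TPM).

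**Figure D4:**
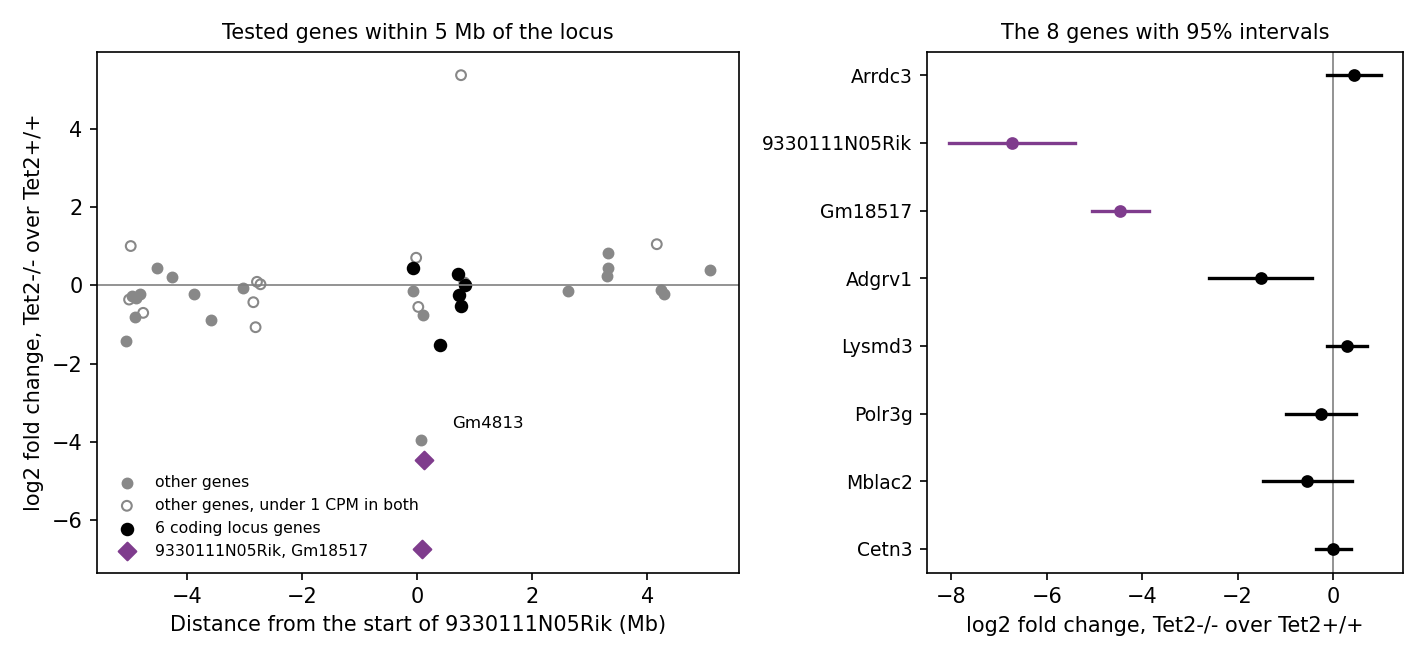
Left, log2 fold change of Tet2-/- over Tet2+/+ for each tested gene within 5 Mb of the locus against distance in Mb from the start of 9330111N05Rik, where open circles are genes under 1 CPM in both genotypes. Right, the 8 genes with 95% intervals from edgeR, where those of 9330111N05Rik and Gm18517 are a description of genes chosen for this difference and the interval of Adgrv1 is the only one of the coding genes that lies below 0.

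Other genes were looked at by position alone. Of 13 further genes annotated within the span of the locus, 7 were tested, and none passed an adjusted p under 0.05 in edgeR. At an unadjusted p under 0.05, 1 was lower, beside 5.12% of all genes tested. In CPM, 2 of the 7 were lower without overlap between genotypes and 0 higher, beside 7.94% and 6.41% of all genes tested. The gene lower at the unadjusted threshold, Gm4813, was named after its values were seen. It is a processed pseudogene inside the span of 9330111N05Rik (chr13:81029103-81029901, - strand). It had 116, 51 and 73 reads in mice 19, 23 and 24, against 16, 0 and 7 in mice 5, 7 and 8. Its log2 fold change was -3.96 (SE 0.92, edgeR adjusted p = 0.324), whereas DESeq2 called it with an adjusted p of 7.55e-05. Over 797 of its bases it is 87.2% identical to Zbtb44. Gm8399, a pseudogene in the same span that is also named after its values were seen, was 2.13 ± 0.29 CPM in Tet2+/+ and 1.26 ± 0.04 CPM in Tet2-/- blasts (SD, n = 3 each), with a log2 fold change of -0.76 (SE 0.36, edgeR adjusted p = 0.645). It has near-identical copies elsewhere, with a highest identity of 99.4%. The lincRNA Gm49375, which shares 345 exon bases with 9330111N05Rik on the same strand, had 10.1, 13.1 and 15.0 reads against 9.6, 11 and 10.7.

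Beyond the locus, no gene was tested within 1 Mb on either side, where 10 are annotated. Within 2.5 Mb, 4 of 41 annotated genes were tested, and 0 were lower or higher at an unadjusted p under 0.05 in edgeR or DESeq2. The nearest tested gene after Cetn3, at 1707 kb, was Mef2c, a transcription factor gene, with a log2 fold change of -0.13 (SE 0.74). The nearest before Arrdc3, at 2604 kb, was the antisense gene A830082K12Rik, with 0.03 (SE 0.73). The 2 smallest unadjusted p within 2.5 Mb belonged to Gm46432 and Tmem161b, with log2 fold changes of 0.82 (SE 0.42, edgeR adjusted p = 0.665) and 0.25 (SE 0.23, edgeR adjusted p = 0.826). Within 5 Mb, 25 genes were tested and 0 passed an unadjusted p under 0.05 in edgeR. Over chromosome 13 this threshold was passed by 54 of 984 genes lower and 22 higher. In CPM, 4 of the 25 were lower without overlap between genotypes and 1 was higher, beside 7.94% and 6.41% of all genes tested. These shares were not compared by a test.

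Families and partners of the coding genes were examined as lists. Of 56 genes outside the locus, 51 were tested. None was called by edgeR's adjusted p, 3 were lower and 2 higher at an unadjusted p under 0.05, beside 5.12% lower and 3.0% higher over all genes, and the median log2 fold change was -0.0087, beside 0.0016 over all genes. Among adhesion receptors of blood cells, relatives of Adgrv1, 3 of 8 tested were lower and 1 higher at the unadjusted threshold, where 5.12% and 3.0% of all genes were. Adgrg1, a receptor of stem and cytotoxic cells, was at 183 ± 34.7 CPM in Tet2+/+ and 52.6 ± 14.8 CPM in Tet2-/- blasts (SD, n = 3 each), a log2 fold change of -1.80 (SE 0.26, edgeR adjusted p = 0.122). Adgrl4, a receptor known from endothelium, was at 19.1 ± 6.38 against 2.48 ± 1.93 CPM (SD, n = 3 each), a log2 fold change of -2.95 (SE 0.75, edgeR adjusted p = 0.406). DESeq2 called both, with adjusted p of 4.12e-07 and 0.00455, and it also called Adgre5 higher (adjusted p = 0.0123), which is named here after its values were seen. Over all genes DESeq2 called 1.48% lower and 0.269% higher.

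The 2 smallest p outside the locus are named for each of the other lists. In the arrestin family 8 genes were tested, Arrdc3 among them, and 0 passed the unadjusted threshold, with Arrb2 at a log2 fold change of 0.83 (SE 0.41) and Sag at -0.43 (SE 0.41). The NEDD4-family ligases and the β-adrenergic receptor gene that ARRDC3 acts with gave 0 of 8, with Wwp2 at 0.31 (SE 0.16) and Nedd4l at -0.24 (SE 0.20). RNA polymerase III gave 0 of 14, Polr3g included, with the repressor gene Maf1 at 0.30 (SE 0.16) and the subunit gene Polr3k at -0.29 (SE 0.21). Centrins and their binding partners gave 0 of 6, with Xpc at -0.16 (SE 0.22) and Poc5 at 0.13 (SE 0.18). The LysM and TLDc domain genes gave 0 of 6, with Oxr1 at 0.30 (SE 0.15) and Ncoa7 at -0.38 (SE 0.31). Of the Usher complex only Adgrv1, lower at the unadjusted threshold, and Whrn (-1.22, SE 1.09) were tested. Of the 5 enzymes of the metallo-β-lactamase fold, Ethe1 was higher at the unadjusted threshold (0.78, SE 0.30, edgeR adjusted p = 0.604), and Mblac1 was at 0.40 (SE 0.28).

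Likeness to 9330111N05Rik was measured as Pearson's r of log2(CPM + 0.5) over the 6 mice, which share the 2 genotypes, so that r mostly follows the difference between them, and it is a description. Within the locus, r was 0.997 for Gm18517, 0.924 for Adgrv1, 0.597 for Mblac2 and 0.481 for Polr3g, and it was -0.11 for Cetn3, -0.61 for Arrdc3 and -0.71 for Lysmd3. Genes were ranked if their mean reached 1 CPM, which 13831 did. The 5 genes outside the locus with the highest r were Gm20427 (0.998), Ptprf (0.996), Gm10845 (0.995), Gm9655 (0.991) and Slc15a2 (0.990). Ptprf, a receptor-type tyrosine phosphatase gene on chromosome 4, had 18.4, 13.8 and 18.4 CPM in mice 19, 23 and 24 against 3.45, 3.60 and 3.69 CPM in mice 5, 7 and 8. Slc15a2, a peptide transporter gene on chromosome 16, had 21.5, 21.1 and 33.1 CPM against 0.0633, 0.129 and 0. Gm9655, a pseudogene on chromosome 8, had 60.9, 31.4 and 90.4 reads against 0 in each Tet2-/- mouse. Gm10845, a lincRNA on chromosome 14, shares sequence with the long transcript of Gm18517, 89.3% identical over 615 bases, and how well its reads were separated from those of Gm18517 was not tested. No such match with a locus gene was found for the other 4.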

How the data were processed

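AML blasts of 3 Cebpa-/p30 Tet2+/+ and 3 Cebpa-/p30 Tet2-/- mice were profiled by RNA-seq. The authors made unstranded TruSeq libraries, sequenced them on a NextSeq instrument and quantified transcripts with Salmon 0.12.0 through bcbio (GRCm38). The deposited estimated counts are Salmon's reads per transcript, not normalised between mice. The deposited TPM values are Salmon's, scaled by effective length. The study's methods name Ensembl release 94 as the transcriptome. Counts were summed here to genes of GENCODE M21, a different release (Python 3.11.15, pandas 2.3.3) and rounded. The 112 of 136288 transcripts without a gene held under 0.05% of reads and were left out. Genes whose normalised counts summed to at least 10 were tested with edgeR 4.0.16 (quasi-likelihood test, TMM factors, Benjamini-Hochberg adjustment over all genes, threshold 0.05) in R 4.3.3. The SE was taken as the log2 fold change over the root of the F statistic. The biological coefficient of variation was 43.6% over genes and 79.1% over transcripts, which limits the precision of low transcripts most.

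The alternatives were DESeq2 1.42.0, length-scaled counts as tximport makes them, both together (the study's design), no filter, filterByExpr, library size only, RLE factors, transcripts free of exon overlaps, limma 3.58.1 on log2(TPM + 1) and log2(TPM + 0.1), and leaving out each mouse. Exact permutation tests used scipy 1.17.1, and shared sequence was found with BLAST+ 2.17.0. Scripts were tested on simulated data. The members and lists were chosen with earlier results of these data known. The genes named are the 8 members, coding transcripts with a mean share of at least 5%, the 2 smallest p of each list or window where none was called, the nearest tested gene on each side, and the 5 genes most like 9330111N05Rik. The labels give no batch. Intervals cover the spread between mice, and counting floors cover counting error only. Figures were drawn with matplotlib 3.10.9.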

Additional observations from a re-analysis of the deposited data

How the results depend on the processing

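The counts of coding locus genes called (0 with an adjusted p, 1 lower and 0 higher without adjustment) were the same with DESeq2, on length-scaled counts, under the other filters and scalings and without any 1 mouse, as were the counts of 0 in the windows of 0.5, 1 and 2.5 Mb on each side (no gene within 1 Mb passed the filter on low counts used in the report). Within 5 Mb, 1 gene was lower with filterByExpr or library size only, and leaving out a mouse gave 0 lower and between 0 and 1 higher (1 without mouse 7 or 24). These counts were not made with limma or on transcripts free of exon overlaps. The sign of the difference did not change for 9330111N05Rik, Gm18517, Arrdc3, Adgrv1, Lysmd3, Polr3g or Mblac2. Cetn3, near 0, turned to -0.0099 with filterByExpr, -0.16 with library size only, -0.46 on transcripts free of exon overlaps, and -0.0074 and -0.0076 with limma on log2(TPM + 1) and log2(TPM + 0.1), and leaving out a mouse gave between -0.056 and 0.085. Library size only lowered the median of all genes by 0.17 (log2). Over all genes, the count lower was 325 with DESeq2, on both count scales, 5 on length-scaled counts, 62 without a filter and between 0 and 7 when a mouse was left out, and the count higher was 59 with DESeq2, 64 with DESeq2 on length-scaled counts, 4 without a filter and 1 with filterByExpr or RLE factors. The study itself reported fewer genes lower and fewer higher than DESeq2 on length-scaled counts gave here, and the reason was not tested. Of family genes, 0 were higher without adjustment under library size only, and between 1 and 3 when a mouse was left out. Leaving out a mouse gave log2 fold changes between -0.031 and 0.98 for Arrdc3 ENSMUST00000159690, between -0.23 and 0.23 for Adgrv1 ENSMUST00000146141, between -0.39 and 8.26 for Polr3g ENSMUST00000162535, between -0.23 and 0.59 for Polr3g ENSMUST00000161093 (-0.0013 with limma on log2(TPM + 0.1)), and between -0.12 and 0.61 for Cetn3 ENSMUST00000224574. The cause of these shifts was not tested. With a minimum of 5 CPM, 4 of the 5 genes most like 9330111N05Rik stayed and Nxt2 entered. Where a genotype was left with 2 mice, the spread was pooled over the mice that remained. No paired analysis was possible because the genotypes share no replicate numbers.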
